A study of Drosophila melanogaster with 4 samples.

Results

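Isolated narrow regions of H3K27me3 enrichment were short called regions that stood alone on the autosomal arms 2L, 3L and 3R of Drosophila melanogaster. They were chosen from the list of enriched regions that the authors deposited for the whole series, as regions under 5000 bp wide with no other region of that list within 10000 bp on either side. Of the 10507 regions of the list, 6610 lay on these 3 arms, and 264 of those were isolated and narrow. They are set here against the 5212 narrow regions of the same arms that had another region within 10000 bp, called grouped regions below. The remaining 1134 regions of the arms were at least 5000 bp wide.

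H3K27me3 is histone H3 trimethylated at lysine 27, and it was mapped by chromatin immunoprecipitation and sequencing (ChIP-seq) in nuclei of heads from wild-type Oregon-R flies. There were 2 ChIP libraries, replicates 1 and 2, each with 1 input library. The flies were mixed adults from population cages run on a cycle of 22 days, heads were sieved from bodies, the tissue was fixed with formaldehyde, and the antibody was an Abcam product of lot 3. Replicates are separate samples per the labels, which do not say whether they came from separate collections of flies. A head holds neurons, glia, eye, muscle and fat tissue, so a mark in few of its cells and a weak mark in many cannot be told apart. The tissue label could not be checked against marker genes, because the regions carry no gene names and no gene annotation of their genome release was used here.

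The mark is made by Polycomb repressive complex PRC2, whose catalytic subunit in flies is Enhancer of zeste, and it is bound by the chromodomain of Polycomb, a subunit of PRC1. Both complexes are brought to DNA at Polycomb response elements, and from there the mark commonly spreads over broad domains that cover silent developmental genes such as the Hox genes. Whether a region here holds a response element was not examined.

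Each list gives the start, the end and a score for every region, with positions on FlyBase release 5, per the file headers, printed here 1-based. No source used here says what the score measures, so scores were compared only within a list. Replicate 1 had 4865 regions, of which 3279 were on the 3 arms, and replicate 2 had 10330, of which 6556 were on the 3 arms. Read numbers are not in the lists, so depth is unknown. The narrowest region measured 1001 bp in the whole-series list and 1301 bp in both replicate lists.

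The isolated narrow regions were few, short and widely spaced. They made up 3.99% of the regions of the 3 arms and 1.58% of the covered length, or 0.469 Mb in all. Arm 3L held 107 of them (4.36 per Mb), 2L held 79 (3.43 per Mb) and 3R held 78 (2.80 per Mb). Grouped regions were far more frequent, at 66.3 per Mb on 3L, 71.2 on 2L and 69.7 on 3R. The share of isolated regions among all regions of an arm was 5.23% on 3L, 3.83% on 2L and 3.12% on 3R. On 3R, which had the lowest share, regions of at least 5000 bp took up 64.9% of the covered length, against 59.6% on 2L and 56.6% on 3L.

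Widths and distances were used to choose the regions and are given as a description. The median width was 1495 bp for isolated and 1828.5 bp for grouped regions, with upper quartiles of 1943.5 and 2685 bp. Of the isolated regions, 89 (33.7%) were narrower than any region of the replicate lists, against 1086 of the grouped regions (20.8%). The median distance of an isolated region to its nearer neighbour was 18977 bp, and the farther neighbour lay at a median of 37383 bp. Of the 264, 110 had no neighbour within 20000 bp and 20 had none within 50000 bp. At the arm ends, 4 regions had a neighbour on 1 side only. In all, 132 of the isolated regions had another isolated region as a direct neighbour. Of the 524 neighbours on either side, 162 (30.9%) were isolated regions, 305 (58.2%) grouped and 57 (10.9%) at least 5000 bp wide.

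The limits fell within a continuous range of values. The widest isolated region measured 4897 bp, at 6004015 to 6008911 on 3R, and the narrowest region left out by its width alone measured 5315 bp, at 27894327 to 27899641 on 3R. In all, 24 regions of at least 5000 bp had no neighbour within 10000 bp. The least isolated region had its neighbour at 10079 bp (22700911 to 22702868 on 2L). The first narrow region left out by distance had it at exactly 10000 bp (22262013 to 22265862 on 2L).

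Nearly all isolated regions that a replicate held were held by replicate 2. Of the 264, 214 (81.1%, exact Clopper-Pearson 95% interval 75.8% to 85.6%) touched a region of replicate 2 by at least 1 bp, and 25 (9.47%, 6.22% to 13.7%) touched a region of replicate 1. Over all regions of the 3 arms, 77.8% touched replicate 2 and 39.7% touched replicate 1. The isolated share in replicate 2 was thus near that of all regions, whereas the isolated share in replicate 1 was below it. Among grouped regions, 3801 (72.9%) touched replicate 2 and 1537 (29.5%) touched replicate 1. The whole-series list was deposited for a series that holds both replicates, and how it was made is not given. It cannot be taken as independent of them, so these shares describe how its calls divide and carry no test. Intervals cover counting error only, since neighbouring regions are not independent.

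Set against both replicates at once, 22 isolated regions (8.33%) touched both, 192 (72.7%) replicate 2 only, 3 (1.14%) replicate 1 only and 47 (17.8%) neither. Over all regions of the arms, 34.2% touched both, 43.6% replicate 2 only and 16.7% neither. The share in neither was therefore close to that of all regions. The isolated regions in both replicates were the widest, with a median of 3297.5 bp, against 1512.5 bp for those in replicate 2 only and 1164 bp for those in neither. Their median score was 0.54, against 0.41 and 0.40. Of the 25 regions in replicate 1, 88.0% were also in replicate 2 (95% interval 68.8% to 97.5%), as were 80.3% (74.7% to 85.2%) of the 239 that replicate 1 lacked. These intervals overlap.

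**Figure D1:**
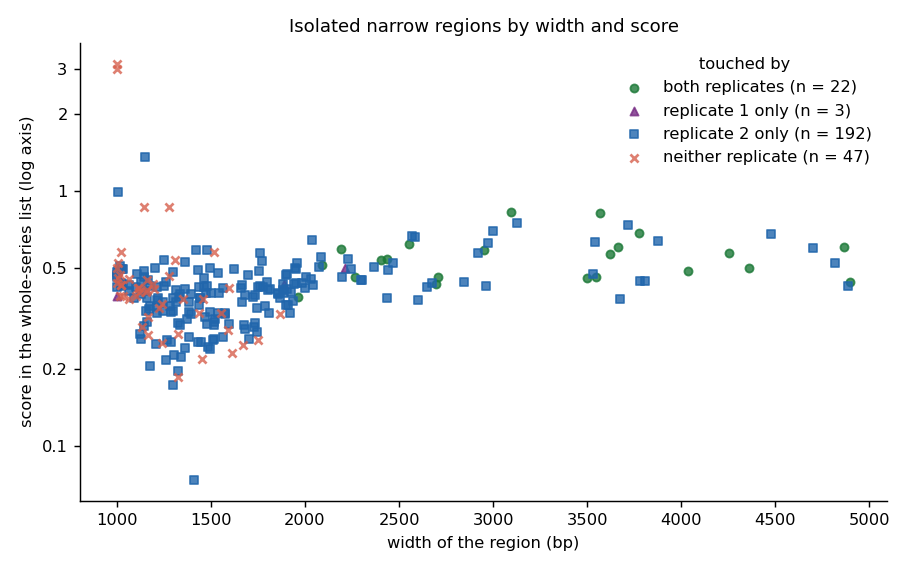
Width (bp) and score (log axis) of each of the 264 isolated narrow regions in the whole-series list, with 1 point per region and the marker showing which replicate lists it touches. The 22 regions in both replicates were mostly over 2000 bp wide, the 47 in neither gathered at the narrow end, and 2 points near a score of 3 lay at 1001 bp.

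The match with replicate 2 was close in position, and that with replicate 1 was partial. Of the 214 regions that touched replicate 2, 213 were covered by it to at least 50% of their length and 151 were covered whole. The region of replicate 2 was wider than the isolated region in 179 cases, with a median of 1910.5 bp. In replicate 1, 17 of 25 were covered to at least 50% and 2 whole, and the region of replicate 1 was the wider one in 3 cases. These matches are not read as particular to isolated regions. With 50% coverage asked for, the isolated share differed from the grouped one by 10.4 points in replicate 2 and -17.6 in replicate 1. With 1 bp the differences were 8.13 and -20.0 points. All 25 of the replicate 1 regions and 163 of the 214 in replicate 2 (76.2%) were themselves narrow and isolated in their own list. Isolation there was in part fixed by the choice of regions, the more so in the shorter list of replicate 1. Of the 214 isolated regions that touched replicate 2, 5 (2.34%) fell in a region of at least 5000 bp there. Among grouped regions 154 of 3801 (4.05%) did so, a share not far from it. Isolated regions that missed a replicate missed it by far: the nearest region of replicate 1 was at a median of 48607 bp for 239 isolated regions, against 8335 bp for the grouped regions that replicate 1 lacked. For replicate 2 the medians were 18098.5 bp for 50 isolated regions and 1470 bp for grouped ones. These distances were in part fixed by the choice of regions with no neighbour.

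In both classes the share held by a replicate was larger for wider regions. Of isolated regions of 1001 to 1300 bp, 1 of 89 (1.12%) touched replicate 1 and 56 (62.9%) touched replicate 2. Grouped regions of that width gave 7.64% and 31.7%. From 1301 to under 2000 bp, 2 of 116 isolated regions (1.72%) were in replicate 1 and 100 (86.2%) in replicate 2, against 17.6% and 72.6% of grouped regions. From 2000 to under 3000 bp the isolated shares were 28.6% and 97.1% of 35 regions, against 42.3% and 91.7% of grouped ones. From 3000 to under 5000 bp they were 50.0% and 100% of 24 regions, against 62.5% and 97.2%. The isolated share was lower in replicate 1 and higher in replicate 2 in each of these width classes. Above 2000 bp the intervals of the difference included 0 in both replicates, for example -12.5 percentage points (-31.3 to 6.33) in replicate 1 for the widest class.

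With grouped regions weighted to the widths of the isolated ones, a comparison added after the data were seen, 21.6% of them touched replicate 1 and 63.6% replicate 2. The isolated regions, at 9.47% and 81.1%, were then 12.1 points below and 17.5 points above. Without weighting the differences were -20.0 points in replicate 1 (Newcombe 95% interval -23.2 to -15.7) and 8.13 points in replicate 2 (2.84 to 12.6). The difference in replicate 2 depended on the overlap asked for. With 50% of a region's own length to be covered, it was 10.4 points (5.05 to 14.9). With a region counted when it lay within 1000 bp, it was -2.78 points (-8.03 to 1.60). The isolated share stayed at 81.1% under that allowance. Grouped regions have near neighbours by the rule, so the allowance raises mainly their share and cannot compare the 2 classes evenly.

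**Figure D2:**
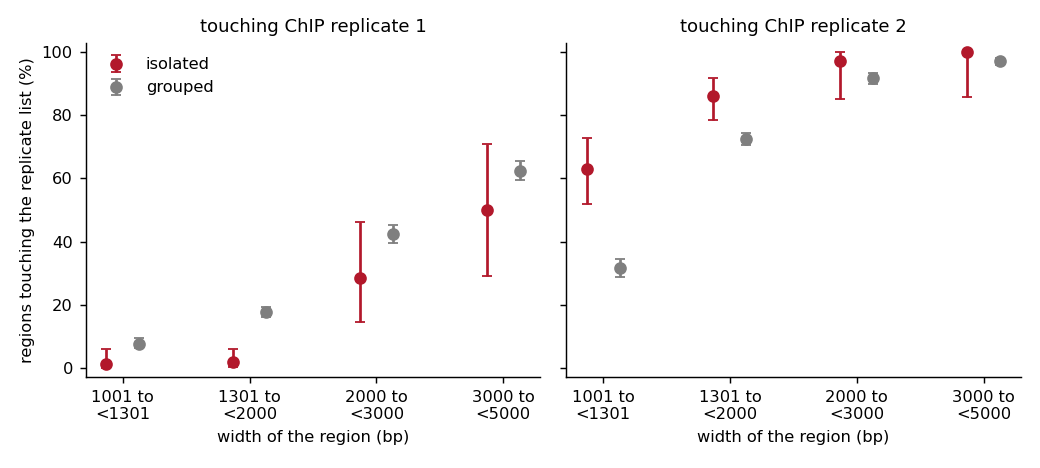
Share (%) of isolated (left, red) and grouped (right, grey) narrow regions of the whole-series list that touch replicate 1 and replicate 2, by width in bp; bars are exact 95% intervals. From 1301 to under 2000 bp, 1.72% of isolated and 17.6% of grouped regions touched replicate 1, and 86.2% and 72.6% touched replicate 2.

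The differences had the same direction on the 3 arms. In replicate 1 the isolated and grouped shares were 12.7% and 34.2% on 2L, 6.54% and 25.7% on 3L, and 10.3% and 28.7% on 3R. In replicate 2 they were 78.5% and 69.4% on 2L, 79.4% and 71.9% on 3L, and 85.9% and 76.8% on 3R. The difference in replicate 1 had an interval below 0 on each arm, while in replicate 2 the interval on each single arm included 0. Whether the arms differed from one another was not tested.

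The share in replicate 1 declined with distance from other regions, without a step at 10000 bp. It was 36.0% for narrow regions within 1000 bp of another region, 24.8% from 1000 to 2000 bp, 16.0% from 2000 to 5000 bp and 12.7% from 5000 to 10000 bp. Beyond, it was 9.74% for 154 isolated regions with a neighbour at 10000 to 20000 bp and 9.09% for the 110 farther off. In replicate 2 the same classes gave 73.5%, 73.6%, 69.8%, 73.2%, 79.9% and 82.7%. Median widths in these classes went down with distance over the grouped ones, to 1603.5 bp at 5000 to 10000 bp, against 1914 bp within 1000 bp. Weighted to equal widths, the share in replicate 1 still went down over the 6 classes, from 25.4% in the nearest to 7.58% in the farthest. Weighted in the same way, the share in replicate 2 went up: 61.4%, 65.1%, 66.6%, 69.4%, 80.2% and 83.1%. Its largest rise was at 10000 bp.

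The same question was asked of each replicate by applying the rule in its own list and looking the regions up in the other, which had no part in the choice. The deficit of isolated regions was far smaller in one direction than in the other. In replicate 1, 273 regions were isolated and narrow, and 229 of them (83.9%, 95% interval 79.0% to 88.0%) touched replicate 2, against 86.7% of 2329 grouped regions. The difference of -2.81 points (Newcombe 95% interval -7.81 to 1.34) included 0. It did not include 0 with a distance limit of 5000 bp, at -3.49 points (-7.34 to -0.075), on the 5 major arms, at -3.73 points (-7.72 to -0.30), or with scores at or above each list's median, at -8.40 points (-15.9 to -1.17). Under 2000 bp the difference was 0.043 points. In replicate 2, 366 regions were isolated and narrow, and 60 of them (16.4%, 12.7% to 20.6%) touched replicate 1, against 44.2% of 5072 grouped regions. This difference of -27.8 points (-31.5 to -23.5) did not include 0. All these intervals cover counting error only, since neighbouring regions are not independent. All regions of replicate 1 on these arms touched replicate 2 in 89.1% of cases, and all regions of replicate 2 touched replicate 1 in 50.5%.

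The deficit of isolated regions of replicate 2 in replicate 1 was present on each arm and in each width class. It was -29.3 points on 2L, -26.2 on 3L and -26.8 on 3R. Under 2000 bp, 8.51% of 235 isolated regions were found again, against 32.3% of grouped regions. From 2000 to under 3000 bp the shares were 24.4% and 49.9%, and from 3000 to under 5000 bp 43.9% and 65.7%. In the other direction the isolated and grouped shares were 80.6% and 80.6% under 2000 bp, 89.5% and 90.4% from 2000 to under 3000 bp, and 100% and 97.4% from 3000 to under 5000 bp. The lists held 3279 regions of replicate 1 and 6556 of replicate 2 on these arms, and the part of list length in these shares was not tested.

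**Figure D3:**
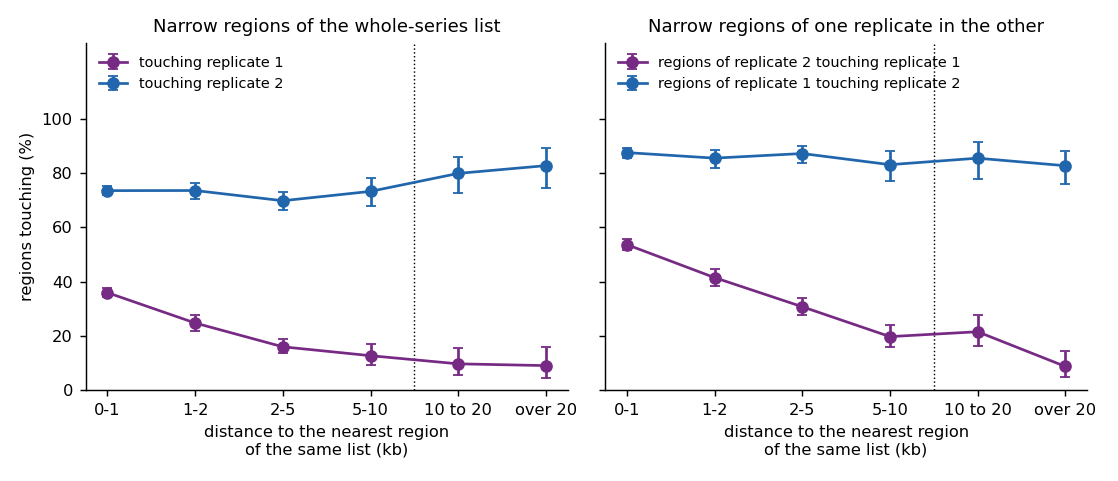
Share (%) of narrow regions found in a replicate list, by distance (kb) to the nearest region of their own list; bars are exact 95% intervals and the dotted line marks 10 kb, with isolated regions to its right. In both panels the share in replicate 1 is highest in the nearest class (36.0% on the left, 53.6% on the right) and lowest in the farthest (9.09% and 8.78%), while the share in replicate 2 stays between 69.8% and 87.5%. Shares are not weighted to widths.

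By distance, narrow regions of replicate 2 were found in replicate 1 in 53.6% of cases within 1000 bp of another region, in 19.8% at 5000 to 10000 bp, in 21.6% at 10000 to 20000 bp and in 8.78% beyond. For narrow regions of replicate 1 in replicate 2, the share lay between 82.7% and 87.5% in all 6 classes.

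Few of the regions isolated in replicate 1 were also isolated in the whole-series list. Of the 273 isolated regions of replicate 1, 25 (9.16%) were isolated in the whole-series list too, while 194 (71.1%) lay in grouped regions, 45 (16.5%) in regions of at least 5000 bp and 9 in no region. Of the 366 of replicate 2, 163 (44.5%) were isolated in the whole-series list, 109 (29.8%) lay in grouped regions, 4 in regions of at least 5000 bp and 90 (24.6%) in no region. The same shares were not computed for grouped or all regions of the replicate lists. They are therefore not read as a trait of isolated regions.

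Scores of isolated regions were close to those of grouped regions of like width. In the whole-series list the median score was 0.42 for isolated and 0.41 for grouped regions over all widths. By arm it was 0.420 and 0.416 on 2L and 0.423 and 0.419 on 3L, while on 3R the isolated median was the lower one, at 0.395 and 0.412. Within width classes the isolated median was higher in each case: 0.42 against 0.40 at 1001 to 1300 bp, 0.38 against 0.35 at 1301 to under 2000 bp, 0.50 against 0.47 at 2000 to under 3000 bp and 0.57 against 0.52 at 3000 to under 5000 bp. Averaged over classes by the number of isolated regions, the difference was 0.026. Computed within each arm it was 0.0064 on 2L, 0.021 on 3L and 0.024 on 3R. Quartile ranges overlapped widely, for example 0.30 to 0.42 for isolated and 0.28 to 0.41 for grouped regions of 1301 to under 2000 bp. Scores come from the calling that the rule was applied to, so no test is given. When only regions at or above the list's median score were kept before the rule was applied, 367 regions were isolated and the difference was -0.0093.

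In the replicate lists, with the rule applied in each, the difference weighted in this way was 0.0065 in replicate 1 and -5.3e-05 in replicate 2. Their mean of 0.0032 was smaller than their spread (SD 0.0047, n = 2). Over all widths the isolated median was 0.62 and the grouped one 0.64 in replicate 1, and 0.57 and 0.59 in replicate 2. From 3000 to under 5000 bp the isolated median was the lower one in both replicates, at 0.71 against 0.73 and at 0.72 against 0.78. For the isolated regions of the whole-series list that a replicate held, the Spearman correlation of their scores in the 2 lists was 0.73 over 214 regions of replicate 2 and 0.30 over 25 regions of replicate 1. The 2 lists cannot be taken as independent, so these values are given as a description.

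**Figure D4:**
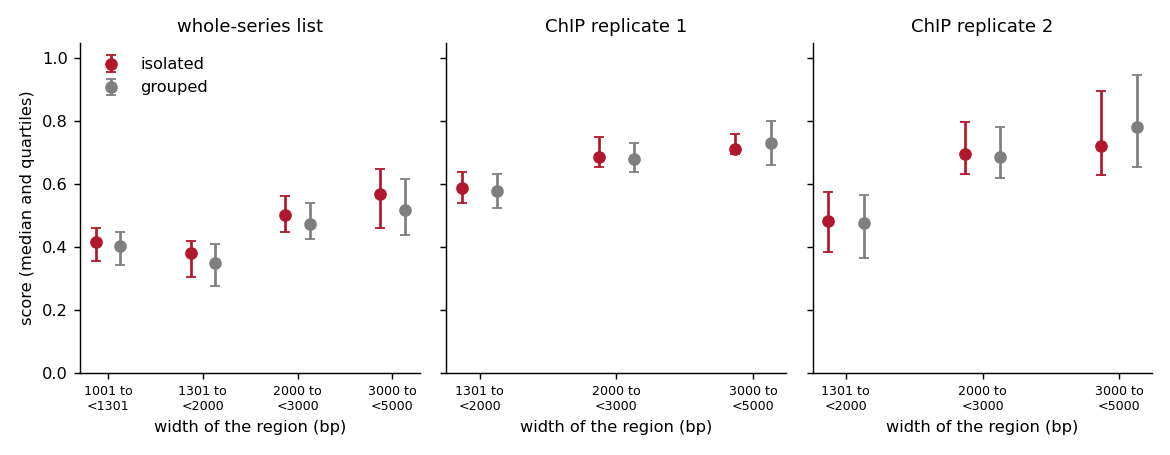
Median score with quartiles of isolated (left, red) and grouped (right, grey) narrow regions by width in bp, in each list with the rule applied in that list. In the whole-series list the isolated medians lay 0.01 to 0.05 above the grouped ones, and in the replicate lists the medians differed by 0.01 or less below 3000 bp.

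Isolated regions lay more often near the centromere end of the arm than grouped ones. Each arm was cut into 5 sections of equal length, numbered from the centromere end of its sequence. In section 1, next to the centromere, lay 85 of 264 isolated regions (32.2%, exact 95% interval 26.6% to 38.2%) and 845 of 5212 grouped regions (16.2%). The difference was 16.0 points (Newcombe 95% interval 10.5 to 21.9). It was 18.0 points on 2L (31.6% of isolated and 13.7% of grouped regions), 17.6 on 3L (33.6% and 16.0%) and 12.3 on 3R (30.8% and 18.5%). In sections 2 to 5, toward the telomere, lay 49, 49, 42 and 39 isolated regions. There the isolated share was the lower one each time. It was 18.6%, 18.6%, 15.9% and 14.8%, against 25.4%, 21.8%, 19.1% and 17.5% of grouped regions. Position was not used by the rule, but the spacing that it used depends on how densely regions lie.

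**Figure D5:**
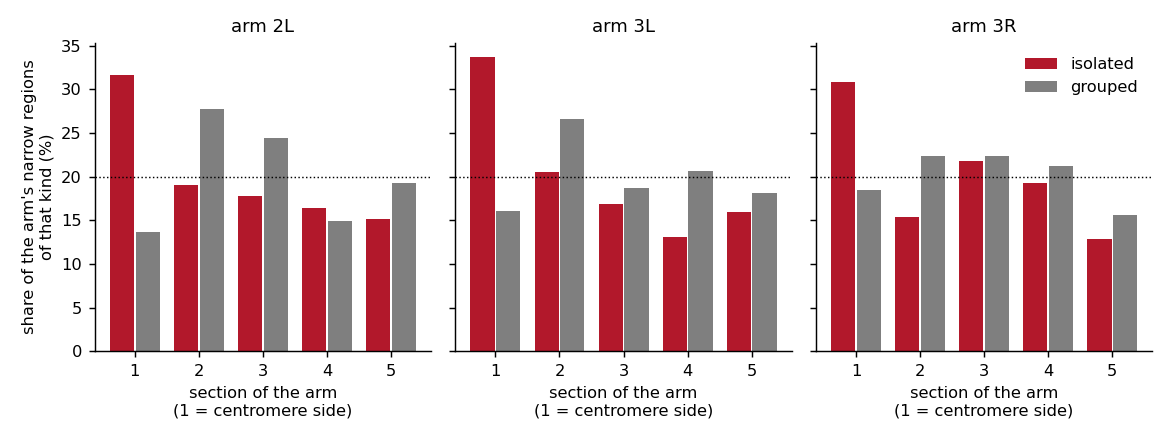
Share (%) of each arm's isolated (left, red) and grouped (right, grey) narrow regions in 5 equal sections of the arm, with 1 at the centromere side; the dotted line is the even share of 20%. Section 1 held 31.6%, 33.6% and 30.8% of the isolated regions of 2L, 3L and 3R, and 13.7%, 16.0% and 18.5% of the grouped ones.

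The counts were also set against the sequence in which an isolated region could lie. Sequence more than 10000 bp from every region that was not itself isolated made up 37.9% of section 1 and 29.2%, 24.9%, 30.6% and 23.0% of the others toward the telomere. Per Mb of this open sequence, a count added after the data were seen, there were 14.9 isolated regions in section 1 and 11.1, 13.1, 9.10 and 11.2 in the others. Per Mb of all sequence the numbers were 5.63 in section 1 and 3.25, 3.25, 2.78 and 2.58 in the others. Section 1 was thus 1.73 times section 2 per Mb of all sequence and 1.34 times per Mb of open sequence. Section 3, at 13.1 per Mb of open sequence, was nearer to section 1. By arm, section 1 had 17.7 isolated regions per Mb of open sequence on 3L, 13.4 on 2L and 13.2 on 3R, where section 3 had more, at 16.8.

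At the very end of the arms the share was higher still relative to grouped regions. Within 2 Mb of the centromere side lay 53 isolated regions (20.1%) and 250 grouped regions (4.80%), a difference of 15.3 points (10.8 to 20.6). The first 1 Mb of 3L alone held 18 isolated regions, the most of its 25 windows of 1 Mb, and that of 3R held 11, the most of 28. On 2L the first 1 Mb held 7, and the fullest window had 8. Within 2 Mb of the telomere side the shares were 5.30% and 5.87%, a difference of -0.57 points whose interval included 0.

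The replicate lists shared this placement in part. With the rule applied in replicate 2, 25.4% of isolated and 17.0% of grouped regions lay in section 1, a difference of 8.45 points (4.13 to 13.3). In replicate 1 the shares were 17.9% and 16.3%, a difference of 1.63 points (-2.75 to 6.82) that included 0. By arm, replicate 1 had -4.44 points on 2L, -0.19 on 3L and 8.17 on 3R, of which only the value on 3R had an interval without 0 (0.29 to 17.9). Within 2 Mb of the centromere side the difference was 2.68 points (0.32 to 6.19) in replicate 1 and 10.4 points (7.04 to 14.5) in replicate 2, both without 0 in the interval. Within 2 Mb of the telomere side it was -2.36 points (-4.80 to 1.16) in replicate 1 and -2.88 points (-4.64 to -0.24) in replicate 2, where the interval did not include 0. These intervals take regions as independent, which neighbouring regions are not, so they cover counting error only and are no test.

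The share of isolated regions held by a replicate showed no steady order along the arm. From section 1 to section 5, replicate 1 held 8.24%, 12.2%, 12.2%, 4.76% and 10.3% of the isolated regions of the whole-series list, against 29.7%, 34.3%, 30.0%, 26.96% and 24.4% of the grouped ones. Replicate 2 held 77.6%, 75.5%, 87.8%, 78.6% and 89.7% of the isolated regions, against 76.2%, 65.9%, 71.9%, 76.2% and 77.9% of the grouped ones. The isolated share was the lower one in replicate 1 and the higher one in replicate 2 in each section.

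The 3 highest scores on 3L belonged to regions under 1300 bp near the centromere end, as did the 2 highest on 2L. Replicate 1 held none of these 5, and only 1 of all 89 isolated regions of 1001 to 1300 bp (1.12%). The 3 highest on 3R belonged to regions of 2585 to 3777 bp. On 3L, the region at 23109725 to 23110725 was 1001 bp wide and had the highest score of all 264, 3.15. It lay 1.43 Mb from the centromere side and touched neither replicate. On 2L, the region at 21653341 to 21654341 was also 1001 bp wide and had the second highest score, 3.00, 1.36 Mb from the centromere side, and it too was in neither replicate. The next on 3L were 1148 bp at 24097468 to 24098615, with a score of 1.36, and 1008 bp at 23037232 to 23038239, with 0.99. Replicate 2 covered them to 73.3% and 82.0% with scores of 1.79 and 1.26 in its own list, and replicate 1 lacked both. On 2L the second was 1144 bp at 22859492 to 22860635, with a score of 0.86, only 0.151 Mb from the centromere side. No region of replicate 2 lay within 86853 bp of it and none of replicate 1 within 331516 bp.

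The 3 highest scores among isolated regions held by both replicates belonged to regions over 3000 bp wide. The first, 3096 bp at 13395584 to 13398679 on 2L, had a score of 0.82, and was covered to 89.2% by replicate 1 (2761 bp, score 0.87 in that list) and to 97.8% by replicate 2 (3130 bp, score 0.99). It stood 28036 and 32989 bp from its neighbours. The second, 3566 bp at 4759983 to 4763548 on 3R, had a score of 0.82 and was covered to 95.7% and 97.2%, with scores of 0.75 in replicate 1 and 0.98 in replicate 2. The third, 3777 bp at 306182 to 309958 on 3R, had a score of 0.69 and was covered to 62.3% and 87.2%, with scores of 0.75 and 1.00. The first 2 thus kept over 89% of their length in both replicates, and the third was cut shorter in replicate 1. The other high-scoring region of 3R, 2585 bp at 8291130 to 8293714 with a score of 0.66, was covered whole by replicate 2 and lay 32073 bp from the nearest region of replicate 1.

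The most remote regions on each arm were held by replicate 2 and missed by replicate 1 in 5 of 6 cases. The same held for 192 (72.7%) of all isolated regions, and with 6 regions no difference from that share can be read. On 3L, the region at 67525 to 69425, 1901 bp wide, was the first of its arm and had its only neighbour at 151829 bp. Replicate 2 covered it to 99.5%. Also on 3L, 4478 bp at 3173495 to 3177972 stood 65821 and 66453 bp from its neighbours, scored 0.67 and was covered whole in replicate 2 by a region of 5168 bp. On 2L, 1127 bp at 141494 to 142620 stood 101170 and 113049 bp away and scored 0.26. On 3R, 2673 bp at 19769261 to 19771933 stood 93835 and 167758 bp away and scored 0.43, and 1565 bp at 448037 to 449601 stood 83296 and 96349 bp away and scored 0.27. Each of these 3 was covered whole by replicate 2. The sixth, on 2L, is the region at 22859492 described above, which neither replicate held.

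The widest and the narrowest regions showed how the lists differ in extent. The widest, at 6004015 to 6008911 on 3R, was covered whole by a region of 5042 bp in replicate 2 and to 34.7% by one of 1701 bp in replicate 1. Of 8 isolated regions at the lowest width of 1001 bp, the first by position lay at 10293569 to 10294569 on 2L with a score of 0.39. It was covered whole by a region of 2377 bp in replicate 1, with a score of 0.87 there, and replicate 2 had no region within 51686 bp. It was 1 of the 3 isolated regions that replicate 1 alone held.

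A core of 17 regions (6.44% of the 264) was narrow and isolated in the whole-series list and in both replicate lists. Isolation in the replicate lists was in part fixed by the choice of regions in the whole-series list. Of these, 8 lay on 2L, 4 on 3L and 5 on 3R, and 6 lay in section 1. Their widths in the whole-series list ranged from 1965 to 4362 bp with a median of 2708 bp, and their scores from 0.38 to 0.82 with a median of 0.51. Replicate 1 covered them to a median of 57.9% and replicate 2 to a median of 97.8%. The region was wider in replicate 2 than in replicate 1 in 16 of the 17, with medians of 2566 and 1600 bp. In replicate 1 their scores ran from 0.46 to 0.87 and in replicate 2 from 0.35 to 0.99. None of the 17 was under 1965 bp, while 205 of all 264 isolated regions were under 2000 bp.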

How the data were processed

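The files were lists of enriched regions, 1 for each ChIP library and 1 for the whole series. Per the submitters' processing notes, alignment used Bowtie 0.12.7, and positions are on FlyBase release 5, per the file headers. The score of each region was used as the authors deposited it. Not given in the sources used here were the caller, its threshold, what the score measures and how the whole-series list was made. Depth is unknown, and inputs had no list of their own.

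One depleted region of replicate 2 was left out, and 1 start in exponent form was read as 18000000. The distance between regions is the number of bases between their ends in the same list, and isolated means more than 10000. Width classes end below 1301, 2000, 3000 and 5000 bp. Regions were counted as found when they touched by 1 bp. Shares have exact Clopper-Pearson 95% intervals and differences Newcombe 95% intervals (scipy 1.17.1, statsmodels 0.14.6), which take regions as independent. No p-values were computed. The code was tested on 20 simulated lists with known answers. Regions named are, by rule, the 3 highest scores and the 2 most remote of each arm, the 3 highest scores in both replicates, the widest, the narrowest and those beside the limits. The members, rule and lists were chosen with earlier results of these data known. The gene table available described release 6, so no genes or sequences are given.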

Additional observations from a re-analysis of the deposited data

How the results depend on the processing

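Of 84 values recomputed under alternatives, 52 stayed within the interval, the spread or the factor of 1.5 set for them, 28 moved and 4 turned in sign. These 4 include the value for the telomere-side 2 Mb, which measures the other end of the arm and is no alternative to the centromere-side value. The number of isolated regions was 578 with a distance limit of 5000 bp, 110 with 20000 bp and 428 on the 5 major arms, changes by construction. Under 2000 bp, 1.46% were in replicate 1, with differences from grouped regions of -12.6 points in replicate 1 and 17.9 in replicate 2, and the lookup from replicate 1 turned to 0.043 points. Without regions narrower than those of the replicate lists, the rule gave 272 isolated regions. Of these, 14.3% were in replicate 1, 90.1% in replicate 2 and 92.3% in at least 1. With scores at or above each list's median, which also thins the replicate lists, the rule was applied after weaker regions were dropped. This gave another set, of 367 isolated regions, of which 57.8% were in replicate 2 and 61.9% in at least 1. The differences were then -13.2 points in replicate 1, 0.42 in replicate 2 and 6.97 at the centromere side, the lookup from replicate 1 was -8.40 points (interval without 0, as also at 5000 bp and on the 5 major arms), and the score difference turned to -0.0093. Counting regions within 1000 bp gave -28.8 points in replicate 1, -34.1 for the lookup from replicate 2, and turned the difference in replicate 2 to -2.78. That allowance raises mainly the share of grouped regions, which have near neighbours by the rule. Weighting to widths gave -12.1 and 17.5 points. A distance limit of 20000 bp gave -34.5 points for the lookup from replicate 2. The score difference was 0.017 at 5000 bp, 0.038 at 20000 bp, 0.039 with means and 0.0040 without width classes. The centromere-side difference was 9.45 points at 5000 bp, and the telomere-side 2 Mb gave -0.57. For these changes the cause was not tested. Looked up in a single replicate, the share of isolated regions found was 9.47% in replicate 1 and 81.1% in replicate 2. With the rule applied within a single replicate list, which gives another set of regions, the centromere-side difference was 1.63 points in replicate 1 and 8.45 in replicate 2. The whole-series list could not be remade without a replicate. No paired analysis was possible because no test compares ChIP with input, and the inputs carry no regions. Weighting to widths and the placement within each replicate alone were chosen after seeing the data. Unknown depth limits every comparison of the lists.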

Other observations

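Many regions of the whole-series list shared their exact score with another region. To 9 decimals, 106 of 264 isolated regions (40.2%), 1930 of 5212 grouped regions (37.0%) and 3530 of all 10507 regions (33.6%) did so. The highest score of an isolated region, 3.15 at 23109725 to 23110725 on 3L, occurred in 10 regions of the list, of which 9 were under 1100 bp wide and none touched a replicate. The second highest, 3.00 at 21653341 to 21654341 on 2L, occurred in 2 regions. Scores of at least 1 belonged to 3 isolated regions (1.14%) and 27 grouped regions (0.518%). These counts were made after the values were seen.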
